A study of Mus musculus with 22 samples.

Results

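The CXC chemokines followed here were 10 genes, Cxcl1, Cxcl2, Cxcl3, Cxcl5, Cxcl9, Cxcl10, Cxcl12, Cxcl13, Cxcl14 and Cxcl16, taken by name from an expression table of 46882 genes. The question was whether the RNA of each ligand was found in the tumor cells themselves, in the host tissue, or only once tumor and host were mixed. RNA of 16 libraries was counted: 2 of MC38 cells, a carcinogen-induced colon carcinoma line from C57BL/6 mice, at day 0 of the experiment; 2 of skin of wild-type mice at day 23; and 12 of tumors that grew after MC38 cells were injected under the skin of the flank. Wild-type hosts (C57BL/6N) gave 3 tumors each at day 23 and day 46, and hosts labelled RAG1-/- (B6.129S7-Rag1tm1Mom/J), which should lack mature T and B cells, gave 3 tumors each at day 13 and day 23. The hosts were females of 8 to 12 weeks, tumor pieces were sequenced whole without sorting, and skin came from wild-type mice only. The labels number the replicates without saying whether they were separate mice or cultures, so p-values measure the spread between these samples only. The labels call the tumor material tumor cells, but every tumor library held RNA of leukocytes, with Ptprc, the pan-leukocyte gene for CD45, at 517 to 916 normalized counts against 0 to 0.978 in MC38 cells. In such whole tissue, fewer cells of a type and less RNA per cell cannot be told apart.

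CXC chemokines are small secreted proteins that bind G-protein-coupled receptors on leukocytes and guide their movement. Cxcl1, Cxcl2, Cxcl3 and Cxcl5 carry the ELR motif and attract neutrophils through Cxcr2, and their genes are classical targets of NF-kB. Cxcl9 and Cxcl10 are induced by interferons and attract activated T cells and NK cells through Cxcr3. Cxcl12 is a stromal ligand of Cxcr4 and Ackr3, Cxcl13 attracts B cells through Cxcr5, Cxcl14 is abundant in normal epithelia, and Cxcl16 is a membrane-anchored ligand of Cxcr6 that Adam10 and Adam17 can shed.

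In the GENCODE annotation of GRCm38, 7 of the 10 genes lie on chromosome 5. The ELR genes sit together on the plus strand, with Cxcl5 at chr5:90759360-90761624, Cxcl3 at chr5:90786103-90789600, Cxcl1 at chr5:90891241-90893115 and Cxcl2 at chr5:90903871-90905938. Cxcl9 at chr5:92321347-92328079 and Cxcl10 at chr5:92346638-92348889 are neighbours on the minus strand, and Cxcl13 is at chr5:95956951-95961068 on the plus strand. The others are Cxcl12 at chr6:117168535-117181367 (plus strand), Cxcl14 at chr13:56288643-56296551 (minus strand) and Cxcl16 at chr11:70453983-70459984 (minus strand). All 10 are protein-coding genes. No member shares exonic bases with a gene on its own strand, while 5.91% of the exonic bases of Cxcl10 and 18.3% of those of Cxcl16 lie opposite exons of Art3 and Zmynd15, and the strand setting of the counting is not given in the sources used here. Within the last 500 bases of the transcripts, where these 3′ libraries are read, 13.3% of the 22-base words of Cxcl2 also occur in transcripts of Cxcl1 or Cxcl3. For Cxcl10, 11.6% of the words also occur, on either strand, in transcripts of 1 other gene. Some of the Cxcl2 and Cxcl10 reads are therefore less certain.

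Promoter sequence is shown for the ELR genes and the Cxcr3 ligands, because members within each group were compared with each other across the libraries. RefSeq windows of 250 bases before the gene start (GRCm38.p6) were present for 8 of the 10 members; Cxcl5 and Cxcl16 had no entry. Both strands were searched for 3 motifs. These were an NF-kB motif, GGGA and TTTCC with any 1 base between them; ISRE, an interferon-stimulated element of GAAA and again GAAA with any 2 bases between; and GAS, the interferon-gamma-activated site, TTC and GAA with any 3 bases between. Sites that depart from these letters were not searched for, so a window without a match can still hold such a site. The NF-kB letters occurred in 0.356% of the 32851 windows of the table, and in those of Cxcl1, Cxcl2 and Cxcl3, in each as GGGAATTTCC. Their bases 150 to 31 before the RefSeq start follow, 5′ to 3′ on the plus strand, at chr5:90891095-90891214, chr5:90903749-90903868 and chr5:90785951-90786070, with the motif in capitals.
Cxcl1: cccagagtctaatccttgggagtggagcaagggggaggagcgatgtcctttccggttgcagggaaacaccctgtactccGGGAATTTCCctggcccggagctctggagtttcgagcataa
Cxcl2: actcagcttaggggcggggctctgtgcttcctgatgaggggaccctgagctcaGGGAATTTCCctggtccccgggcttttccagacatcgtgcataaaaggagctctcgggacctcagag
Cxcl3: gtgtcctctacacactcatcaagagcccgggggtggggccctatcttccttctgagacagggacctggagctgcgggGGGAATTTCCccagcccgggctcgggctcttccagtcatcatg
The 10 capital letters begin 71, 97 and 73 bases before the start of Cxcl1, Cxcl2 and Cxcl3. The whole windows of the neighbouring Cxcr3 ligands are given 5′ to 3′ on the minus strand, at chr5:92328080-92328329 and chr5:92348890-92349139.
Cxcl9: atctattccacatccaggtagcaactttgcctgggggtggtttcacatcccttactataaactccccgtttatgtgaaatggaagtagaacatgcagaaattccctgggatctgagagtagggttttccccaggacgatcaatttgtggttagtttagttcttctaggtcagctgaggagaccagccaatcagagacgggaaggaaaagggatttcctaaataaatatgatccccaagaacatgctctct
Cxcl10: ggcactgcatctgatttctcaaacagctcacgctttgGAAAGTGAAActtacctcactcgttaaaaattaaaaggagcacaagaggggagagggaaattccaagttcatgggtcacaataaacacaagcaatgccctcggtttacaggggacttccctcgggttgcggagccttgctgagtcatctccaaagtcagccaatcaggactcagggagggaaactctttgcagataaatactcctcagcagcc
Capitals mark an ISRE match of Cxcl10, 213 bases before the start, and no letters of these 3 motifs were found in this window of Cxcl9. ISRE letters occurred in 2.98% of all windows and GAS letters in 7.02%. The Cxcl14 window also held both, an ISRE match 172 and a GAS match 191 bases before the start, and those of Cxcl12 and Cxcl13 held none.

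Libraries held 5589151 to 26134241 reads on genes, and 3 reads, the limit that a count of 0 allows, stood at 1.33 to 6.38 normalized counts. The smallest library was RAG1-/- day 23 replicate 2. Rag1 was listed at 1.07, 1.11 and 11.4 in the tumors labelled RAG1-/- of day 13, 5.24, 2.13 and 1.77 in those of day 23 and 0 to 0.628 in wild-type tumors, so this gene goes against the labels; a 3′ tag need not lie in the deleted part of a gene and cannot check them. The sum of 8 T cell markers followed the labels, at 1.11 to 20.01 in the tumors labelled RAG1-/- and 25.4 to 229 in wild-type tumors. Cd3e, Cd3g and Cd8b1 were at 0 in every one of the former, although Cd3g was also as low as 0 in wild-type tumors (0 to 14.0). Cd3d (0 to 2.86 against 1.95 to 50.9), Cd4 (1.11 to 16.2 against 0 to 17.0), Cd5 (0 to 1.31 against 0.852 to 8.16) and Cd28 (0 to 5.30 against 0 to 16.8) overlapped. Skin held keratinocyte markers at 341693 to 346788 and skeletal muscle markers at 90849.8 to 130017, so the skin libraries also held muscle RNA. RAG1-/- day 13 replicates 1 and 3 carried muscle markers at 8137 and 8424, and wild-type day 23 replicate 2 carried keratinocyte markers at 1763, each above every other tumor.

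The ligands differed in where their RNA was found. MC38 cells carried Cxcl1 and Cxcl10, they held 19 and 15 reads of Cxcl12, and Cxcl2, Cxcl9 and Cxcl16 had 0 reads in both libraries. Against MC38 cells, the same 5 members were higher in wild-type tumors and in tumors labelled RAG1-/-, namely Cxcl2, Cxcl9, Cxcl10, Cxcl14 and Cxcl16, and Cxcl1 was lower in both (limma, Benjamini-Hochberg adjusted p under 0.05). These 6 of 10 tested members compare with 27.9% of all genes called for wild-type tumors (18.3% higher and 9.61% lower) and 23.3% for the tumors labelled RAG1-/- (15.8% higher and 7.55% lower). Cxcl2, Cxcl9, Cxcl14 and Cxcl16, with at most 1 read in MC38 cells, passed the filter on low values through the tumors alone, so these counts are no support for a difference of the members as a group. Both comparisons share the 2 MC38 libraries. The median log2 fold change of the 10 members was 2.01 and 2.04, and that of all genes 0.05 and 0.06. Against skin, MC38 cells were higher in 1 member, Cxcl1, and lower in 5 of the 8 that passed the filter of a mean of 5 normalized counts, which are Cxcl2, Cxcl9, Cxcl12, Cxcl14 and Cxcl16; over all genes 62% were called, 20.8% higher and 41.2% lower. Cxcl2, Cxcl9, Cxcl13, Cxcl14 and Cxcl16 reached that filter through skin alone, and all of them but Cxcl13 were called, so this count is no such support either. Cxcl3 and Cxcl5 were not tested there. The median of the 8 was -4.95, or -4.73 with the members at 0 reads set to their bounds, and that of all genes -0.40. Wild-type tumors exceeded skin in 5 of 10 members, Cxcl1, Cxcl2, Cxcl9, Cxcl10 and Cxcl16, and were below it in Cxcl12 and Cxcl14; of all genes 57% were called, 22.8% higher and 34.2% lower. The median of the members was 0.85 and that of all genes -0.18. Fold changes are on the log2(normalized count + 1) scale, and where a group had 0 reads a bound against 3 reads per library is given instead.

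**Figure D1:**
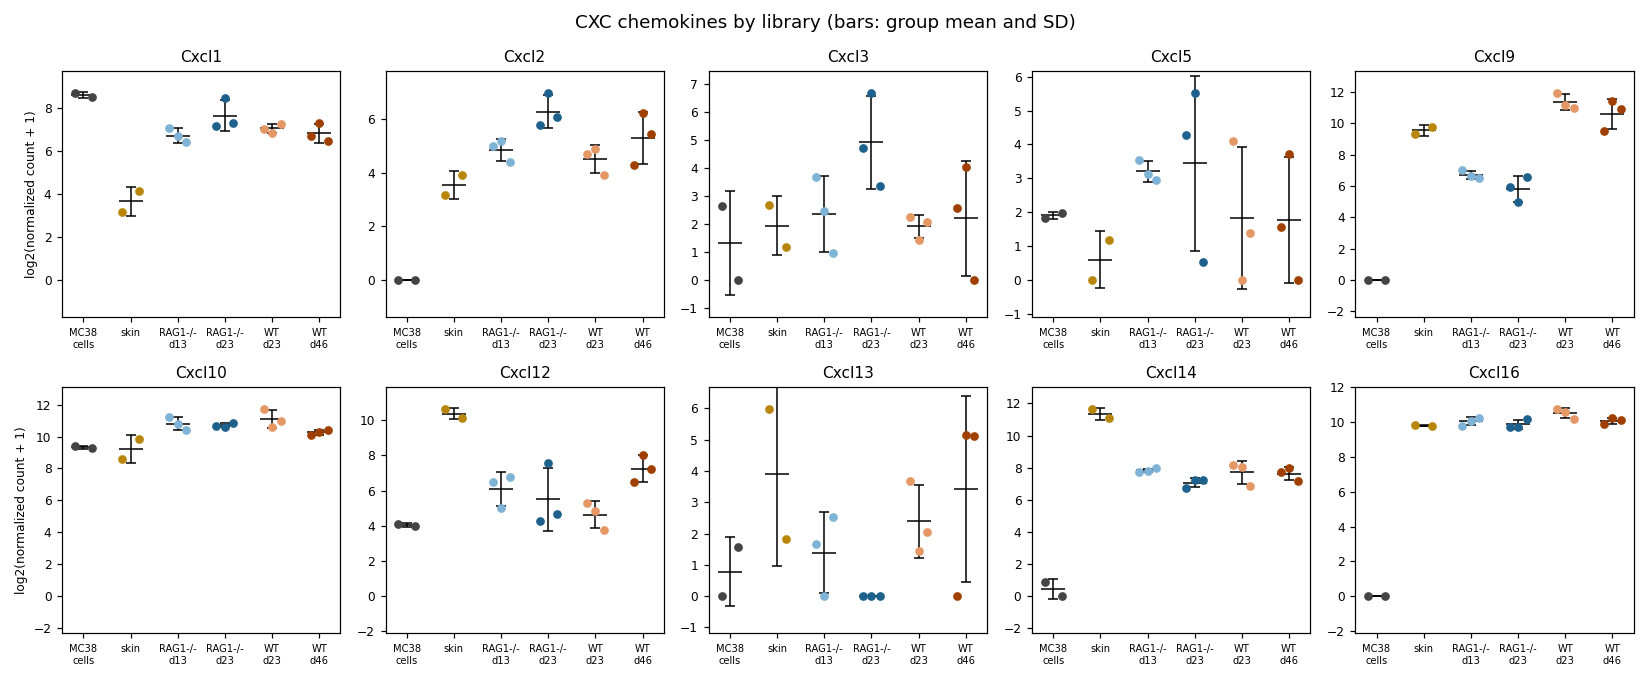
Each panel plots one CXC chemokine, with log2(normalized count + 1) on the y axis and the 6 sample groups on the x axis (d13, d23 and d46 are days, WT is wild type); points are libraries and bars the group mean with SD. Cxcl16 lay at 0 in MC38 cells and between 843 and 1693 normalized counts in every tumor, Cxcl9 separated wild-type tumors from those labelled RAG1-/-, and Cxcl1 was highest in MC38 cells.

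Among the ELR ligands, Cxcl1 and Cxcl2 differed in direction relative to MC38 cells. Cxcl1 was lower and Cxcl2 higher in the tumors than in the cells, while both were above skin in all 12 tumors. Cxcl1, also known as KC, was read at 417 and 369.5 normalized counts in MC38 cells and 8.04 and 16.6 in skin. Tumors labelled RAG1-/- held 135, 102 and 83.8 at day 13 and 144, 355 and 160.0 at day 23, and wild-type tumors 132, 116 and 155 at day 23 and 103, 160.5 and 87.3 at day 46. Each of the 12 tumors lay below both MC38 libraries and above both skin libraries. The tumor groups overlapped, except day 13 and day 23 under the RAG1-/- label. The mean of MC38 cells was 31.9 times that of skin (log2 fold change 4.96 ± 0.41 SE, adjusted p = 0.000605). Cxcl1 was lower than in MC38 cells in wild-type tumors (log2 fold change -1.67 ± 0.32 SE, adjusted p = 0.000593) and in tumors labelled RAG1-/- (log2 fold change -1.42 ± 0.32 SE, adjusted p = 0.00272). The latter call held in 20 of 21 alternatives and was lost without MC38 replicate 1, which left 1 library of the cells. Leaving out 1 library each, its log2 fold change ranged from -1.63 to -1.30. Against skin, wild-type tumors held 10.2 times as much (log2 fold change 3.30 ± 0.38 SE, adjusted p = 5.26e-06).

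Cxcl2, also known as MIP-2 and a product of activated macrophages, had 0 reads in both MC38 libraries and 8.04 and 14.0 normalized counts in skin. Tumors labelled RAG1-/- reached 31.02, 35.6 and 20.01 at day 13 and 55.0, 126 and 66.7 at day 23, and wild-type tumors 25.1, 29.0 and 14.3 at day 23 and 18.6, 73.9 and 42.7 at day 46. All 12 tumors exceeded both skin libraries. The mean of wild-type tumors was at least 12.3-fold and that of the tumors labelled RAG1-/- at least 20.2-fold higher than the floor of MC38 cells (limma adjusted p = 6.36e-07 and 1.36e-07), and skin was at least 4.01-fold higher (adjusted p = 0.00288). The excess of wild-type tumors over skin (log2 fold change 1.38 ± 0.52 SE, adjusted p = 0.0364) was past the threshold in 12 of 21 alternatives and was lost without either skin library.

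Cxcl3 and Cxcl5, which share Cxcr2 with them, had few reads. Cxcl3 stood at 5.13 and 0 in MC38 cells and 5.36 and 1.27 in skin, in tumors labelled RAG1-/- at 11.8, 4.45 and 0.953 at day 13 and 24.9, 100.01 and 9.28 at day 23, and in wild-type tumors at 3.69, 1.70 and 3.17 at day 23 and 4.89, 15.4 and 0 at day 46. Cxcl5 stood at 2.57 and 2.93 in MC38 cells, 0 and 1.27 in skin, in tumors labelled RAG1-/- at 10.7, 7.78 and 6.67 at day 13 and 18.3, 44.7 and 0.442 at day 23, and in wild-type tumors at 16.2, 0 and 1.58 at day 23 and 1.95, 12.1 and 0 at day 46. Both genes overlapped between MC38 cells and the tumors. Neither passed limma in any of the comparisons in which it was tested. Between MC38 cells and skin, the exact permutation test gave p = 0.667 for Cxcl3 and 0.333 for Cxcl5, the smallest p that 2 against 2 libraries allow; the Cxcl5 mean of MC38 cells was 4.21 times (95% counting interval 0.756 to 166) the level given by the pooled reads of skin, 1 read in all over the summed size factors. RAG1-/- day 23 replicate 2 had the highest value of the 12 tumors for each of the 4 ELR ligands, with 355 for Cxcl1, 126 for Cxcl2, 100.01 for Cxcl3 and 44.7 for Cxcl5. Its 6 neutrophil markers summed to 185, within the 41.7 to 254 of the tumors labelled RAG1-/-, against 44.3 to 138 in wild-type tumors, 2001 to 14416 in skin and 3.91 to 5.13 in MC38 cells; the part of neutrophils in these values was not tested.

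Cxcl9, an interferon-gamma-induced ligand of Cxcr3, varied most of the members over the 16 libraries, with an SD of 3.73 on the log2 scale, next to 3.45 for Cxcl16. Both MC38 libraries held 0 reads, and skin held 636 and 885 normalized counts. Tumors labelled RAG1-/- held 127, 96.7 and 88.6 at day 13 and 58.9, 29.8 and 94.6 at day 23. Wild-type tumors held 3899, 2282 and 1982 at day 23 and 736, 2709.9 and 1917 at day 46. The lowest wild-type tumor was above the highest tumor labelled RAG1-/-, and all of the latter were below both skin libraries. By the mean, the order was wild-type tumors, skin, tumors labelled RAG1-/- and MC38 cells, and 1 of the 6 wild-type tumors lay inside the range of skin. Over both days the wild-type mean was 27.3 times that of the tumors labelled RAG1-/- (log2 fold change 4.72 ± 0.31 SE, adjusted p = 7.6e-07), and at day 23, the day both genotypes share, it was 44.5 times as high (log2 fold change 5.54 ± 0.44 SE, adjusted p = 2.23e-05). Cxcl9 was the only one of the 10 members called in either comparison by limma, where 0.712% and 0.278% of all genes were called. DESeq2 on the recovered reads, which called 1.92% and 1.62% of all genes, added Cxcl13 over both days, and Cxcl2 and Cxcl3 at day 23. Cxcl13 passed the filter on low values through wild-type tumors alone (mean 14.1 against 1.15). Cxcl3 passed it through tumors labelled RAG1-/- alone (25.2 against 4.82). Their calls are therefore no support for a difference of the members as a group. The medians of the 10 members were 0.03 and -0.10, beside 0.01 and 0.01 for all genes. Against MC38 cells, the Cxcl9 mean was at least 819.8-fold higher in wild-type tumors and at least 30.1-fold higher in tumors labelled RAG1-/- (adjusted p = 8.49e-13 and 2.4e-09), and in skin at least 277-fold higher (adjusted p = 0.000145). The excess over skin in wild-type tumors (log2 fold change 1.43 ± 0.45 SE, adjusted p = 0.0149) was lost without either skin library.

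Cxcl10, the other Cxcr3 ligand of the set, was unlike Cxcl9 in that MC38 cells carried it. MC38 cells held 665 and 615 and skin 387 and 913 normalized counts, which overlapped (log2 fold change 0.10 ± 0.42 SE, adjusted p = 0.845). In tumors labelled RAG1-/- it stood at 2393, 1799 and 1346 at day 13 and 1643, 1551 and 1814 at day 23, and in wild-type tumors at 3319, 1560.0 and 2001 at day 23 and 1077, 1243 and 1359 at day 46. All 12 tumors were above both MC38 and both skin libraries, and wild-type and RAG1-/- labels overlapped throughout. Cxcl10 was higher than in MC38 cells in wild-type tumors (log2 fold change 1.35 ± 0.23 SE, adjusted p = 0.000217) and in tumors labelled RAG1-/- (log2 fold change 1.43 ± 0.23 SE, adjusted p = 0.000133), the mean being 2.75 and 2.75 times that of the cells. Over both days the mean was 1759.9 ± 827 (SD, n = 6) in the wild type, while the RAG1-/- label had 1758 ± 356 (SD, n = 6), with no call (log2 fold change -0.08 ± 0.17 SE, adjusted p = 0.901). Wild-type tumors were above skin (log2 fold change 1.45 ± 0.31 SE, adjusted p = 0.00103), and without skin replicate 1 the log2 fold change was 0.84 with an adjusted p of 0.0741.

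**Figure D2:**
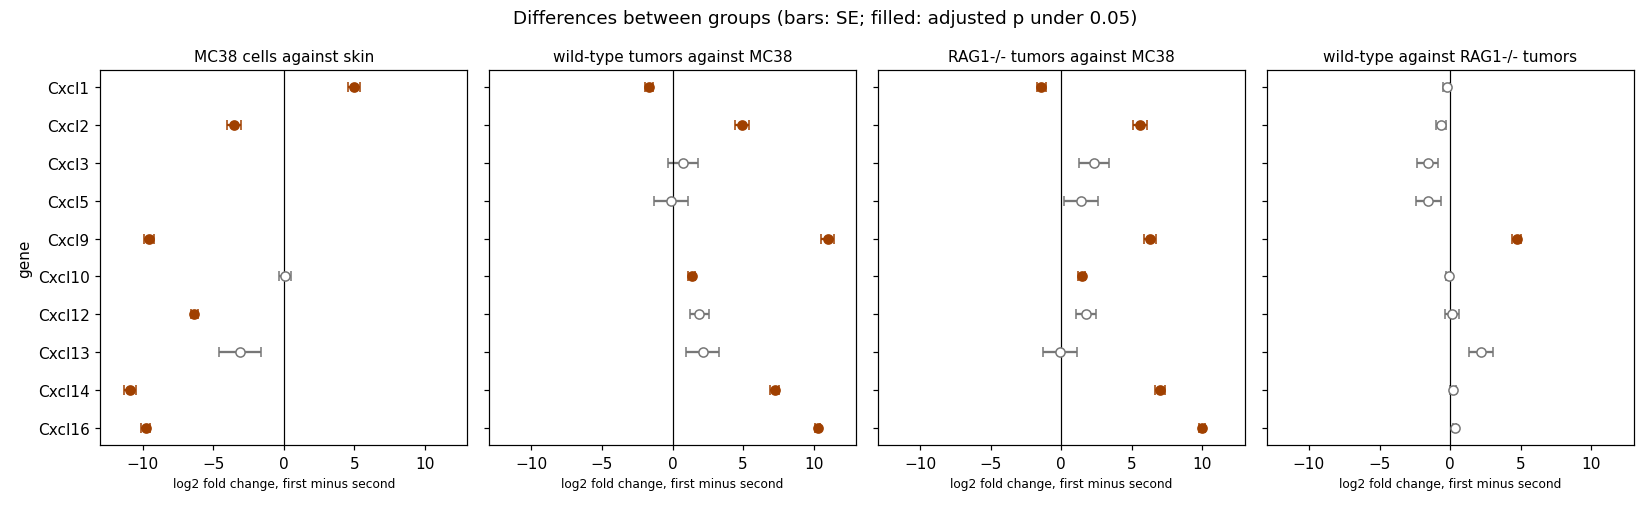
Log2 fold changes (x axis) of the 10 members (y axis) in 4 comparisons, with SE as bars and filled points for limma adjusted p under 0.05. Cxcl9 was the 1 filled point in the comparison of the 2 host genotypes, and the fitted values of Cxcl2, Cxcl9 and Cxcl16 against MC38 cells depend on the pseudocount because those cells held 0 reads; Cxcl3 and Cxcl5 were not tested between MC38 cells and skin.

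Genes upstream of the Cxcr3 ligands were listed as well. Ifng, the gene for interferon-gamma itself, had 0 reads in MC38 cells and in all 3 tumors labelled RAG1-/- of day 13. At day 23 it was 5.24, 0 and 1.33 normalized counts under that label, and wild-type tumors held 22.9, 3.41 and 9.51 at day 23 and 2.93, 14.8 and 1.26 at day 46, with no call in any comparison in which it was tested. Irf1, an interferon-induced transcription factor, was 447 and 417 in MC38 cells and 414 and 501 in skin. Under the RAG1-/- label it was 1164, 1191 and 976 at day 13 and 746, 1015 and 1087 at day 23, and in wild-type tumors 2516, 1834 and 1651 at day 23 and 1091, 1109.9 and 1662 at day 46. It was higher in wild-type tumors at day 23 (log2 fold change 1.07 ± 0.21 SE, adjusted p = 0.0438) but passed no threshold over both days (adjusted p = 0.0663). The day 23 call was lost without any 1 of the 6 libraries other than RAG1-/- replicate 3, with adjusted p of 0.0862 to 0.227. Irf1 was higher than in MC38 cells in wild-type tumors (log2 fold change 1.86 ± 0.20 SE, adjusted p = 7.9e-07) and under the RAG1-/- label (log2 fold change 1.23 ± 0.20 SE, adjusted p = 0.00012). The receptor chain Ifngr1, at 98.7 to 104 in MC38 cells and 240.5 to 573 in the 12 tumors, was higher as well (log2 fold change 2.05 ± 0.22 SE, adjusted p = 1.24e-06 in the wild type and log2 fold change 2.09 ± 0.22 SE, adjusted p = 1.13e-06 under the RAG1-/- label), as was the second chain Ifngr2 (log2 fold changes 0.92 and 1.25). Ifngr1, Ifngr2 and the kinases Jak1 and Jak2 were lower in MC38 cells than in skin, by limma log2 fold changes of -2.80, -1.69, -1.07 and -1.41, and none of the 4 was called between the genotypes. The T cell marker sums given above differed between the labels in the same libraries; their part in the Cxcl9 difference was not tested.

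**Figure D3:**
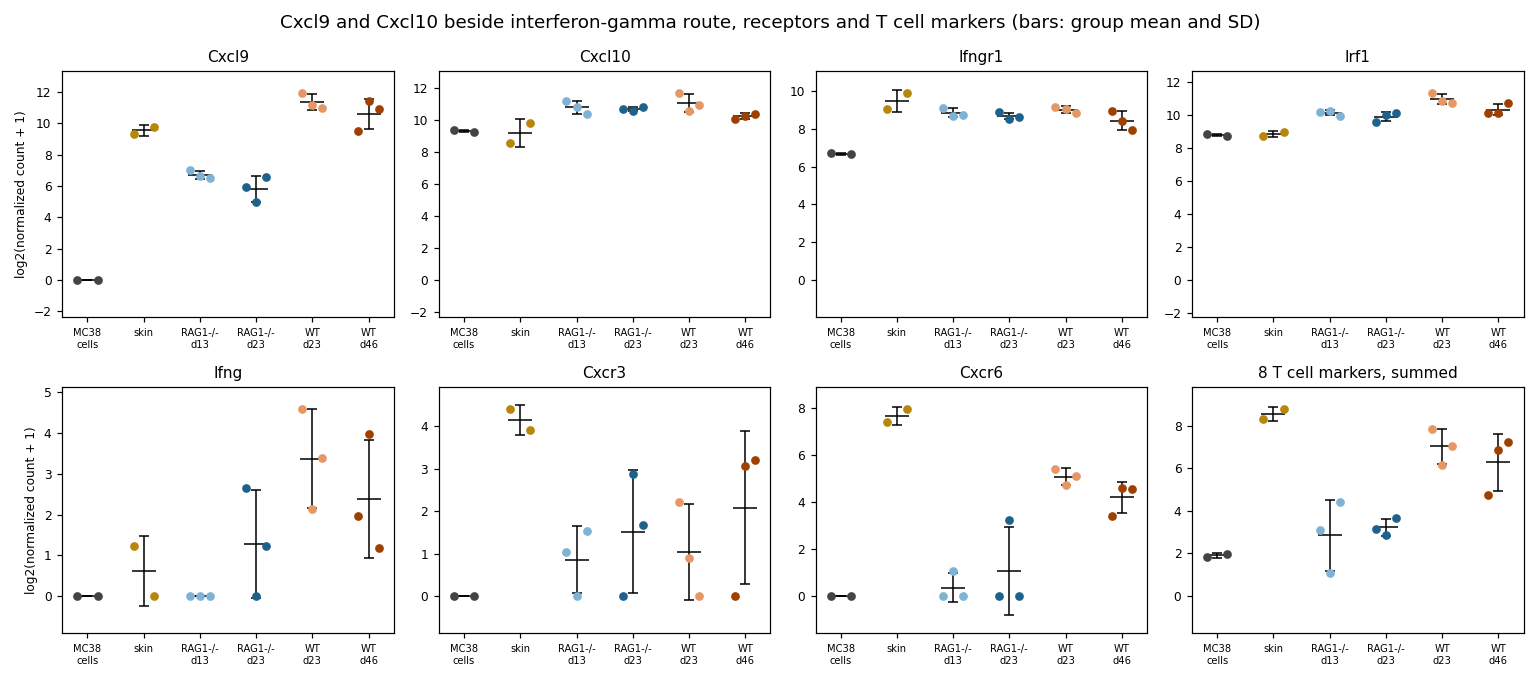
Cxcl9 and Cxcl10 beside the interferon-gamma receptor chain Ifngr1, Irf1, Ifng, the receptors Cxcr3 and Cxcr6 and the sum of 8 T cell markers, each as log2(normalized count + 1) on the y axis by sample group on the x axis; points are libraries and bars the group mean with SD. The 6 wild-type tumors stood above the 6 labelled RAG1-/- for Cxcl9, Cxcr6 and the T cell sum, while Cxcl10 overlapped.

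Cxcl16, the transmembrane ligand of Cxcr6, was not read in MC38 cells and was read in every tumor and skin library. It had 0 reads in both MC38 libraries, whose 3-read floors were 2.57 and 2.93 normalized counts, and 896 and 873 in skin. Tumors labelled RAG1-/- held 888, 1083 and 1225 at day 13 and 843, 851 and 1149 at day 23, and wild-type tumors 1693, 1546 and 1157 at day 23 and 957, 1184 and 1101 at day 46. The 12 tumors spanned 843 to 1693, from just below skin upward. Relative to MC38 cells the mean was at least 463-fold higher in wild-type tumors, at least 366-fold higher in tumors labelled RAG1-/- and at least 322-fold higher in skin (adjusted p = 6.35e-17, 9e-17 and 0.00012). The difference from skin was small (log2 fold change 0.50 ± 0.18 SE, adjusted p = 0.0265) and was lost without either skin library. At day 23 the values of the 3 wild-type tumors were all above those of the 3 labelled RAG1-/-, a difference of 0.63 ± 0.18 SE on the log2 scale that did not pass (adjusted p = 0.191). The 10 macrophage and monocyte markers summed to 172 to 196 in MC38 cells and 11397 to 11411 in skin. The sums were 13936 to 23439.5 in tumors labelled RAG1-/- and 18179.6 to 27741 in wild-type tumors. Adgre1, Mrc1 and Fcgr1, 3 of the 10, were at 0 in both MC38 libraries, and the other markers made up the sum there. The part of macrophages in the Cxcl16 values was not tested. By the root mean square difference of centred log2 values over 16 libraries, among genes with a mean of 20 or more, the 3 genes most like Cxcl16 were Adgre1 (0.278), Cybb (0.309) and Basp1 (0.328). The first of these encodes F4/80 of macrophages and the second a subunit of the phagocyte oxidase. Cxcl16 had an SD of 3.45, and its largest step was between MC38 cells at 0 reads and all other libraries. The measure therefore weighs that step most, and a shared cell source was not tested.

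Cxcl14, an epithelial ligand, had its highest level in skin. Skin held 3159 and 2147 normalized counts, and the MC38 libraries held 1 read in all. Tumors labelled RAG1-/- had 213, 222 and 246 at day 13 and 106, 149 and 149 at day 23, and wild-type tumors 289, 265 and 117 at day 23 and 213, 249.1 and 146 at day 46. Every tumor lay between the MC38 and the skin libraries. The mean of skin was 5814 times (95% counting interval 1043 to 229639) the level given by the pooled MC38 reads, which is the reads of both libraries over their summed size factors (adjusted p = 0.000145), and 12.4 times the mean of wild-type tumors (log2 fold change -3.68 ± 0.31 SE, adjusted p = 2.31e-07). Wild-type tumors held 467 times (95% counting interval 83.9 to 18458) that pooled MC38 level, and tumors labelled RAG1-/- 396 times (95% counting interval 71.1 to 15653) (adjusted p = 1.56e-11 and 2.66e-11). The 9 keratinocyte markers summed to 341693 to 346788 in skin, 311 to 323 in MC38 cells, 380.3 to 483 in tumors labelled RAG1-/- and 236 to 1763 in wild-type tumors. Of the 9, Krt10 alone was 291 to 304 in MC38 cells and 344 to 465 in tumors labelled RAG1-/-, where Krt5, Krt1 and Ivl were at 0. The part of keratinocytes in the Cxcl14 values was not tested.

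Cxcl12, the stromal ligand that retains cells through Cxcr4, was highest in skin as well, at 1574 and 1138 normalized counts, against 16.3 and 14.7 in MC38 cells. Under the RAG1-/- label it was 89.9, 31.1 and 108 at day 13 and 18.3, 189 and 24.3 at day 23, and in wild-type tumors 37.6, 28.1 and 12.7 at day 23 and 88.9, 263 and 147 at day 46. Values spread widely over the tumors, and 1 of them, wild-type day 23 replicate 3, lay below both MC38 libraries. The skin mean was 87.7 times that of MC38 cells (log2 fold change -6.35 ± 0.26 SE, adjusted p = 0.000145) and 14.1 times that of wild-type tumors (log2 fold change -4.45 ± 0.75 SE, adjusted p = 0.000159). Against MC38 cells, the wild-type tumors missed the threshold (log2 fold change 1.90 ± 0.70 SE, adjusted p = 0.0514), as did the tumors labelled RAG1-/- (log2 fold change 1.76 ± 0.70 SE, adjusted p = 0.0803). Without wild-type day 23 replicate 3 or day 46 replicate 1 the former passed (adjusted p = 0.0374 and 0.0343), and without RAG1-/- day 13 replicate 2 or day 23 replicate 1 the latter passed (adjusted p = 0.0428 and 0.0346). The 9 fibroblast markers summed to 363295 to 422022 in skin, 5159.8 to 5804 in MC38 cells, 13943 to 39544 in tumors labelled RAG1-/- and 19496 to 51822 in wild-type tumors, and in MC38 cells Lum and Fap were at 0, Col3a1 was 3336 to 4040.2 and Pdgfra was 1220.1 to 1250.3, above the 510.4 to 556 of skin. The part of fibroblasts in the Cxcl12 values was not tested. Wild-type day 46 replicate 2, highest of the tumors for Cxcl12 with 263, was also highest for this sum, with 51822. Next by this sum were RAG1-/- day 23 replicate 2 with 39544 and replicate 3 with 35141, where Cxcl12 was 189 and 24.3.

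**Figure D4:**
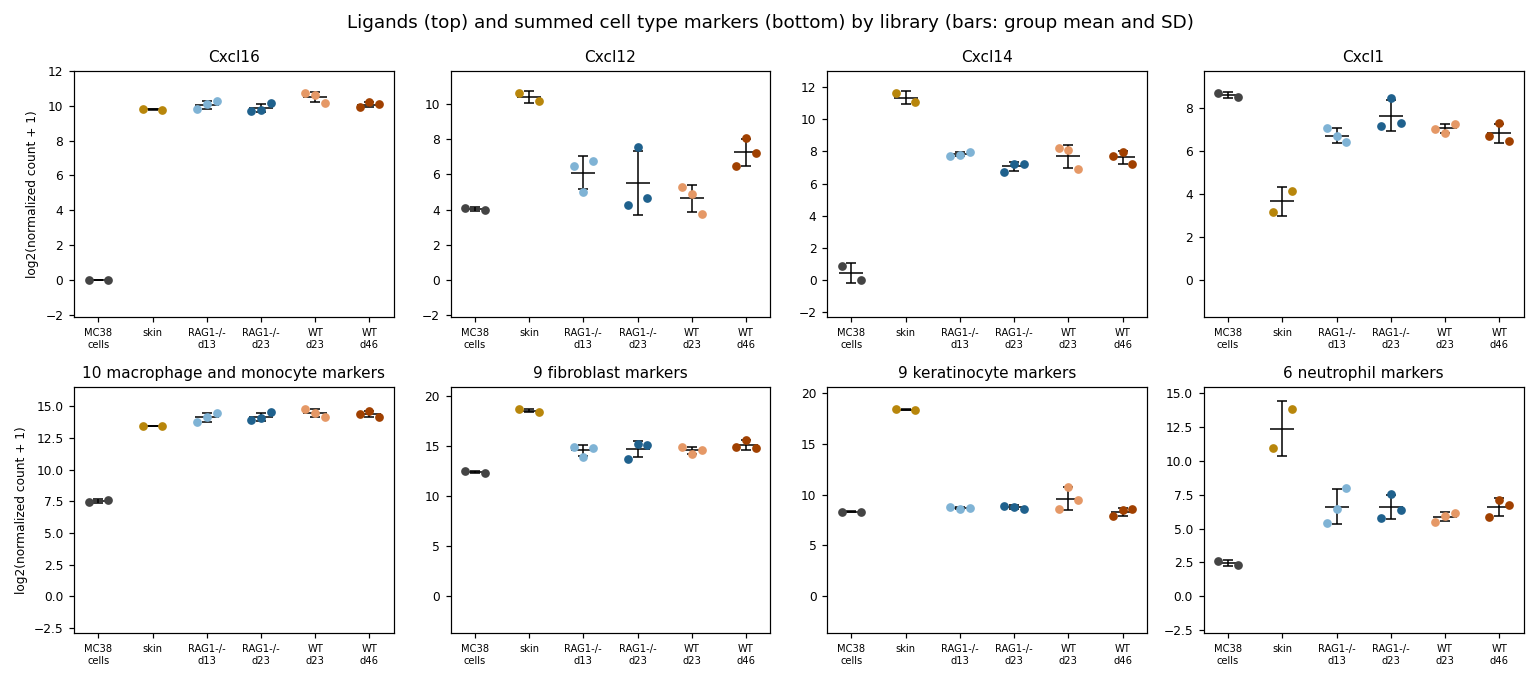
Cxcl16, Cxcl12, Cxcl14 and Cxcl1 in the top row and the summed macrophage and monocyte, fibroblast, keratinocyte and neutrophil markers below, as log2(normalized count + 1) on the y axis by sample group on the x axis; points are libraries and bars the group mean with SD. The macrophage and monocyte sum was at most 196 in MC38 cells and at least 13936 in every tumor, alongside Cxcl16, and keratinocyte and fibroblast sums were highest in skin, as Cxcl14 and Cxcl12 were.

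Cxcl13, the B cell ligand of Cxcr5, was near the floor in most libraries. MC38 cells held 0 and 1.96 and skin 61.6 and 2.55 normalized counts. Tumors labelled RAG1-/- held 2.14, 0 and 4.76 at day 13 and 0 reads in all 3 at day 23, and wild-type tumors held 11.8, 1.70 and 3.17 at day 23 and 0, 34.2 and 33.9 at day 46. Only 1 skin library and 3 wild-type tumors stood above 10 normalized counts. The wild-type mean was 12.3 times that of the tumors labelled RAG1-/-, without passing the test (log2 fold change 2.21 ± 0.87 SE, adjusted p = 0.330), although DESeq2 gave an adjusted p of 0.0288 and limma 0.0443 without wild-type day 46 replicate 1, whose count was 0. Its receptor Cxcr5 was at 0 to 2.55 normalized counts in all 16 libraries.

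With time, no member passed limma in either genotype. From day 23 to day 46 in the wild type, 0% of all genes were called (1261 at an unadjusted p under 0.05, and 0.278% by DESeq2), and from day 13 to day 23 under the RAG1-/- label, 0% (1722 unadjusted, and 1.4% by DESeq2); DESeq2 and edgeR called no member in either. Among the members, 3 had an unadjusted limma p under 0.05 in the wild type. Cxcl12 was 6.36 times as high at day 46 (log2 fold change 2.61 ± 0.73 SE, unadjusted p = 0.00267, adjusted p = 0.385), and the 2 days did not overlap, as for 2 of 10 members and 12.5% of all genes tested. Cxcl10 also did not overlap, with a log2 fold change of -0.84 ± 0.24 SE (adjusted p = 0.385), and Cxcl16 had -0.43 ± 0.18 SE (adjusted p = 0.548). Under the RAG1-/- label 4 members had an unadjusted p under 0.05. The ELR ligands Cxcl1, Cxcl2 and Cxcl3 had log2 fold changes of 0.94, 1.43 and 2.54 with adjusted p of 0.300, 0.287 and 0.356, and Cxcl14 had -0.76 with 0.356. The day 13 and day 23 values of Cxcl1, Cxcl2 and Cxcl14 did not overlap, 3 of 10 members against 19.4% of all genes tested. The medians of the 10 members were -0.07 and -0.14, beside 0.00 and -0.01 for all genes. The later-minus-earlier difference passed no test of a difference between the genotypes for any member; the lowest p was that of Cxcl12 (3.20 ± 1.03 SE, limma adjusted p = 0.450), and the days differ between the genotypes.

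At day 23, 5 of 10 members did not overlap between the labels, against 16.1% of all genes tested; besides Cxcl9 these were 4 members that did not pass the test. Cxcl2 had 25.1, 29.0 and 14.3 normalized counts in the wild type and 55.0, 126 and 66.7 under the RAG1-/- label (log2 fold change -1.78 ± 0.50 SE, adjusted p = 0.165; 0.0349 by DESeq2). Cxcl3 had -3.00 ± 1.03 SE (adjusted p = 0.279; 0.0385 by DESeq2). Each wild-type value of Cxcl2 and Cxcl3 lay below, and each of Cxcl16 and Cxcl13 above, all values under the RAG1-/- label, Cxcl13 by a mean at least 1.43-fold higher (adjusted p = 0.499). The Cxcl13 values of wild-type replicates 2 and 3, 1.70 and 3.17, were below the 3-read floors of RAG1-/- replicates 1 and 2, 3.93 and 6.38. The counts therefore do not settle the order of the labels for Cxcl13.

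The receptors were set beside their ligands. Cxcr6, the receptor of Cxcl16 on T cells and NK cells, had 0 reads in MC38 cells and 169 and 246 normalized counts in skin. Under the RAG1-/- label it stood at 0, 1.11 and 0 at day 13 and 0, 8.51 and 0 at day 23, and in wild-type tumors at 42.0, 25.6 and 33.3 at day 23 and 9.77, 23.5 and 22.6 at day 46. Cxcr6 was the 1 receptor of the 5 tested that was higher in wild-type tumors (log2 fold change 3.92 ± 0.59 SE, limma adjusted p = 0.00543). Over all genes 0.712% were called in either direction. With a mean of 1.60 under the RAG1-/- label, Cxcr6 passed the filter on low values through the wild-type tumors alone. Its call is therefore no support for a difference of the receptors as a group. At day 23 alone Cxcr6 missed the threshold (limma adjusted p = 0.0641). It also missed it over both days without the 2 tumors highest in muscle markers or the 2 highest in keratinocyte markers (adjusted p = 0.0796 and 0.0739). Cxcl16 itself was read in all 12 tumors at 843 or more, and Cxcr6 at 10 or more only in 5 of the 6 wild-type ones. Cxcr3, the receptor of Cxcl9 and Cxcl10, was at 0 to 8.16 in wild-type tumors, 0 to 6.38 in those labelled RAG1-/-, 20.1 and 14.0 in skin and 0 in MC38 cells. It was called only between MC38 cells and skin (adjusted p = 0.00139) and did not pass the filter on low values with tumors in the fit. Cxcr2, the neutrophil receptor of the ELR ligands, was 69.7 and 89.2 in skin and 0 to 16.05 in tumors, lower in wild-type tumors than in skin (log2 fold change -4.49 ± 0.77 SE, adjusted p = 0.00018), and Cxcr1 had 0 reads in all 16 libraries. The Cxcl12 receptors Cxcr4 and Ackr3, the second a scavenger, were higher in tumors than in MC38 cells (Cxcr4 5.40 ± 0.59 SE in wild-type tumors and 5.11 ± 0.59 SE under the RAG1-/- label, Ackr3 4.69 ± 0.37 SE and 3.87 ± 0.37 SE, with adjusted p between 1.77e-08 and 2.9e-06). Of 6 receptors tested between MC38 cells and skin, all 6 were lower in the cells, beside 41.2% of all genes. Cxcr3, Cxcr4, Cxcr6 and Ackr1, with at most 2 reads in an MC38 library, reached the filter on low values through skin alone. This count is therefore no support for a difference of the receptors as a group.

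Cytokines and factors of the NF-kB route to the ELR genes gave no call between the labels, with 0 of 7 tested passing over both days and 0 at day 23. Il1b, an inducer of these ligands, was 2.57 and 0 in MC38 cells, 60.3 to 116 in skin, 332 to 743 in tumors labelled RAG1-/- and 163 to 464 in wild-type tumors, and was higher than in MC38 cells in both (log2 fold change 7.39 ± 0.37 SE in wild-type tumors and 8.05 ± 0.37 SE under the RAG1-/- label). Il1a and Tnf, also inducers, were higher as well, and in all 5 of 7 genes were higher in wild-type tumors and 6 of 7 in those labelled RAG1-/-, beside 18.3% and 15.8% of all genes, with Rela uncalled in both. Il1a, Il1b and Tnf, with at most 3 reads in an MC38 library, passed the filter on low values through the tumors alone. These counts are therefore no support for a difference of these genes as a group. Nfkbia in wild-type tumors passed in 5 of 21 alternatives and Nfkb1 under the RAG1-/- label in 9 of 21. Between MC38 cells and skin 6 of 7 were lower in the cells, beside 41.2% of all genes, Rela again excepted. Il1a, Il1b and Tnf reached the filter there through skin alone, so this count is no such support either. Cxcl1 was read at its highest in MC38 cells, where Il1b had at most 3 reads in a library. The part of Il1b in the Cxcl1 values was not tested. Of the 5 proteases that cut or shed these ligands, 4 were higher in tumors than in MC38 cells under each label, beside the same shares of all genes. Among them were Mmp2, a gelatinase (6.25 ± 0.58 SE and 5.08 ± 0.58 SE), and Dpp4, which trims Cxcl10 and Cxcl12. Dpp4 had 0 reads in MC38 cells and passed the filter through the tumors alone, so the protease count is no such support either. None of the 5 was called between the labels. Adam10 had 0.68 ± 0.18 SE in wild-type tumors and 0.50 ± 0.18 SE under the RAG1-/- label, where it passed in 6 of 21 alternatives.

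By the same measure of likeness over the 16 libraries, the genes nearest to the other members were the following. Cxcl1 was nearest to Eomes (0.534), Mthfd2 (0.538) and Clcf1 (0.552). For Cxcl2 the nearest were Milr1 (0.777), Rapsn (0.778) and F630028O10Rik (0.806), and for Cxcl9 Iigp1 (1.20), Cd74 (1.55) and Clec12a (1.59), against an SD of 1.97 for Cxcl2 and 3.73 for Cxcl9. Cxcl10 was nearest to Nmi (0.314), Erap1 (0.327) and Naip2 (0.339). The neighbours of Cxcl12 were Lgi2 (0.630), Ccbe1 (0.663) and Ebf2 (0.694) and those of Cxcl14 Il13ra1 (0.456), Pycard (0.548) and Dhrs3 (0.572). For Cxcl3, Cxcl5 and Cxcl13 the nearest genes were still 1.22 or more apart, against SDs of 1.71 to 2.05.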

How the data were processed

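Expression was measured by 3′ mRNA sequencing (QuantSeq, Ion Proton) of MC38 cells, skin and whole tumors. Per the submitters' notes and the study's methods, the authors trimmed reads with cutadapt and Trimmomatic, dropped those under 22 bases, aligned them to mm10 with STAR and Bowtie2, counted genes with HTSeq and normalized with DESeq2; versions and the strand setting are not given in the sources used here. The deposited signal values were gene counts divided by a size factor of each library. All of them came out as whole reads (tolerance 0.001) once multiplied back, and these reads were used for edgeR and DESeq2 as alternatives. Samples were grouped by the labels. Differences were tested by limma 3.58.1 (R 4.3.3) with an intensity trend on log2(normalized count + 1), after genes averaging under 5 normalized counts over the fitted libraries were dropped, with Benjamini-Hochberg adjustment over all genes tested and a threshold of 0.05, two-sided. Comparisons of tumors were fitted with all 12 tumors, joined by MC38 cells or skin where these were compared. It was tested on simulated data first. Members below the filter got an exact permutation test of the log2 difference.

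Alternatives were pseudocounts 0.1 and 5, no filter or a mean of 20, upper quartile or total rescaling, no trend, a block for the replicate number, other sets of libraries in the fit, edgeR 4.0.16, DESeq2 1.42.0 and leaving out each library. Leaving out the 2 tumors highest in muscle or in keratinocyte markers was chosen after seeing the data. Depth limits low genes: a count of 0 allows 3 reads, and ratio intervals (exact Poisson, 95%, of the pooled reads of the low group over its summed size factors) and floors cover counting error only. The 10 members were named in every comparison, other genes only from fixed lists of ligands, receptors, interferon-gamma and NF-kB genes, proteases and cell type markers, plus the 3 genes most like each member. Members and lists were chosen with earlier results of these data known. Promoter windows came from RefSeq (GRCm38.p6) and positions from GENCODE (GRCm38). A table on antibodies of 6 samples was not used here, since its column names match no label. A withheld item of the listed genes is not reported here.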

Additional observations from a re-analysis of the deposited data

Results flagged for a closer look

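The difference of tumors from MC38 cells was not the same in both genotypes for Cxcl9. Measured against the same 2 MC38 libraries, the log2 difference was 10.98 in wild-type tumors and 6.25 in tumors labelled RAG1-/-, and the test of the gap between them gave 4.72 ± 0.31 SE (limma, adjusted p = 7.6e-07), and each of the 6 wild-type values lay above each of the 6 others. Since MC38 cells held 0 reads, the 2 differences themselves depend on the pseudocount while the gap does not use those cells. The T cell markers moved with it and their part was not tested.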

How the results depend on the processing

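Over the alternatives of all 8 comparisons, the 27 called member differences gave 530 values, of which 513 stayed past the threshold in the same direction, 17 missed it and 0 reversed; the 51 differences without a call gave 1004, of which 16 passed and 49 changed sign. Cxcl9 between the genotypes passed in every alternative run. DESeq2 called 2 members over both days (Cxcl13 added) and 3 at day 23, where limma called 1. Leaving out 1 library each gave 1 to 2 calls over both days (2 without wild-type day 46 replicate 1), and for wild-type tumors against skin 3 to 7, with 3 without skin replicate 1 and 4 without skin replicate 2. Replicate numbers were not taken to pair the samples as a whole: 4 of 18 tumor pairs of one number had deviations correlated over 0.1 (-0.22 to 0.19), although 3 of the 4 were all the pairs of RAG1-/- day 23 with wild-type day 46 (0.105, 0.182 and 0.116), which differ in host and day. With the replicate block, 7 members were called in place of 6 for MC38 cells against skin and for tumors labelled RAG1-/- against MC38 cells, 6 in place of 7 for wild-type tumors against skin, and as many as without it elsewhere.

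Sign changes were all among differences without a call, with cause not tested. Cxcl5 in wild-type tumors against MC38 cells was -0.11 on the log2 scale, but 0.16 with pseudocount 5, 0.56 with the replicate block, 0.98 in edgeR, 0.96 in DESeq2 and 1.03 without the tumors highest in keratinocyte markers. Without those, Cxcl10 and, at day 23, Cxcl5 between the genotypes were 0.22 and 0.67, and Cxcl13 and Cxcl3 of day 46 against day 23 were -0.26 and -0.030. With pseudocount 0.1, Cxcl3 of day 46 against day 23 was -0.51, Cxcl5 of day 23 against day 13 -0.12 and Cxcl3 against skin -0.21, and with pseudocount 5 Cxcl13 under the RAG1-/- label against MC38 cells was 0.0085. Upper quartile rescaling gave 0.030 for Cxcl14 and 0.0054 for Cxcl5 of day 46 against day 23. Cxcl12 between the genotypes was -0.15 in edgeR and -0.21 in DESeq2, and of day 23 against day 13 it was 0.0030 in DESeq2 and 0.50 without the tumors highest in muscle markers, where Cxcl13 was 0.

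Leaving out 1 library each, ranges that crossed 0 were -0.51 to 0.72 for Cxcl10 in MC38 cells against skin; -0.56 to 2.05 for Cxcl3 and -0.68 to 0.34 for Cxcl5 in wild-type tumors, and -0.87 to 0.70 for Cxcl13 under the RAG1-/- label, against MC38 cells; -0.24 to 0.036 for Cxcl10 and -0.16 to 0.66 for Cxcl12 between the genotypes over both days, and -1.48 to 0.17 for Cxcl12 at day 23; -0.48 to 0.16 for Cxcl14, -0.63 to 1.39 for Cxcl3 and -1.04 to 1.07 for Cxcl5 of day 46 against day 23; -0.32 to 0.098 for Cxcl10, -1.63 to 0.025 for Cxcl12 and -0.81 to 1.69 for Cxcl5 of day 23 against day 13; and -3.06 to 1.08 for Cxcl13 and -0.62 to 0.87 for Cxcl3 against skin. Scaling moved the split of all genes called and added 1 member call, Cxcl12 in wild-type tumors against MC38 cells (adjusted p = 0.0304, upper quartile). Total rescaling turned 3482 higher and 6920 lower in MC38 cells against skin into 4985 and 5764 (median of all genes -0.40 to 0.01), and 3708 and 5554 in wild-type tumors against skin into 5502 and 4176 (median -0.18 to 0.21). Upper quartile rescaling turned 2687 and 1413 in wild-type tumors against MC38 cells into 3084 and 621 (median 0.05 to 0.21), 2317 and 1111 under the RAG1-/- label into 2438 and 600, and the wild-type split against skin into 4385 and 4604. For day 23 against day 13, total rescaling moved the median of all genes from -0.01 to -0.13. The depth leaves Cxcl3, Cxcl5, Cxcl13, Ifng and Cxcr3 near the floor of 3 reads, where a missed threshold does not show that levels were alike.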

Other observations

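Of 5 further CXC ligand genes, 3 were tested. Pf4, a platelet and megakaryocyte chemokine, was at 5.99 and 1.96 normalized counts in MC38 cells, 796 and 1164 in skin and 608 to 2049 in the 12 tumors. It was higher than in MC38 cells in wild-type tumors (log2 fold change 7.78 ± 0.33 SE, adjusted p = 2.54e-12) and under the RAG1-/- label (log2 fold change 7.97 ± 0.33 SE, adjusted p = 1.96e-12) by limma. Cxcl11, the third Cxcr3 ligand and a gene annotated as a polymorphic pseudogene, was at 8.56 and 0 in MC38 cells, 9.38 and 47.2 in skin, 8.56 to 42.9 under the RAG1-/- label and 15.4 to 60.2 in the wild type, and the host genotypes overlapped. It was also higher in tumors than in MC38 cells (log2 fold change 3.15 ± 0.69 SE, adjusted p = 0.00205 in the wild type and log2 fold change 2.79 ± 0.69 SE, adjusted p = 0.00597 under the RAG1-/- label), calls that were lost without MC38 replicate 2 (log2 fold changes 1.52 and 1.16), and 41.7% of its exonic bases lie opposite an exon of Gm2673. Ppbp was called between MC38 cells and skin alone (log2 fold change -1.20, adjusted p = 0.0452; past the threshold in 4 of 15 alternatives), and Cxcl15 and Cxcl17 stayed under 3 normalized counts everywhere.

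Marker sums of the remaining cell types were as follows. The 7 B cell markers summed to 0 to 1.71 in MC38 cells, 436 to 504 in skin, 42.6 to 153 in tumors labelled RAG1-/- and 114 to 461 in wild-type tumors. Among them, Igkc was 0 to 1.77 in tumors labelled RAG1-/- and 50.7 to 287 in wild-type tumors. Ighm (29.8 to 147 against 25.4 to 237) and Cd79b (5.56 to 26.5 against 2.56 to 20.8) overlapped between the labels. The 4 NK cell markers summed to 189.9 to 235 in MC38 cells, 10.7 to 33.1 in skin, 99.0 to 173 in tumors labelled RAG1-/- and 106 to 157 in wild-type tumors, where Eomes alone made up 189.9 to 235 in MC38 cells. The 6 dendritic cell markers summed to 62.6 to 77.9 in MC38 cells, 283 to 385 in skin, 56.3 to 92.4 in tumors labelled RAG1-/- and 66.5 to 149 in wild-type tumors, with Xcr1 at 0 in every tumor labelled RAG1-/-. The 7 endothelial markers summed to 9.41 to 13.7 in MC38 cells, 1605 to 1745 in skin, 493 to 1103 in tumors labelled RAG1-/- and 477 to 1299.9 in wild-type tumors, and the 4 adipocyte markers to 0 to 2.93 in MC38 cells, 1543 to 1897 in skin, 0.442 to 38.5 in tumors labelled RAG1-/- and 0 to 57.1 in wild-type tumors.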
